A study of Mus musculus with 12 samples.

Results

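The Hoxa cluster was examined as one block of acetylated chromatin in fibro-adipogenic progenitors (FAPs), the resident mesenchymal cells of muscle, from which fat cells and fibroblasts can arise. Its members were the 10 listed genes Hoxa2, Hoxa3, Hoxa4, Hoxa5, Hoxa6, Hoxa7, Hoxa9, Hoxa10, Hoxa11 and Hoxa13, out of 21896 protein-coding genes in the RefSeq table of GRCm38.p6. The block ran from 20000 bp before the first to 20000 bp after the last of them, on chromosome 6 from 52142417 to 52280880, which is 138463 bp. Each peak was counted once and given to the nearest protein-coding gene. Peaks nearest to a gene outside the list stay in the totals of the block and are given as peaks of an unlisted gene. The rule goes by position in the genome and uses no measured value.

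The cells were sorted by flow cytometry from mdx mice on the C57Bl6 background, a dystrophin-deficient model of Duchenne muscular dystrophy that all libraries of the series share. Mice of 12 months (old) or 1.5 months (young) were injected into the peritoneum each day for 15 days with 0.6 mg/kg/day of trichostatin A (TSA), which blocks histone deacetylases, or with saline, called vehicle here. Chromatin was immunoprecipitated for acetylation of histone H3 at lysine 27 (H3K27ac), a mark of active promoters and enhancers, or at lysines 9 and 14 (H3K9/14ac), found mostly at active promoters. The series holds 12 samples, 8 immunoprecipitated and 4 input, with 1 library in each group. Neither the sorting gate nor how many mice went into a library is stated in the sources used here. The peak lists as used here break off along the genome, and only 3 of the 8 reach the cluster: H3K27ac of old TSA, H3K27ac of young TSA and H3K9/14ac of old TSA. All 3 come from TSA-treated mice, so that no effect of TSA on the Hoxa cluster is given. With 1 library a group there is no test between groups, and every difference below is one between single libraries. The labels of the H3K9/14ac libraries carry a doubt: over 1709 regions the tags of young TSA and old vehicle were the most alike (Spearman 0.911) and those of old TSA and old vehicle the least (0.879), whereas for H3K27ac the most alike were the libraries of the same age (0.931 in old, and higher in young). The H3K9/14ac ranking rests on small differences, with young TSA and young vehicle at 0.909 and young vehicle and old vehicle at 0.879. The H3K9/14ac values of the Hoxa block come from the library labelled old TSA alone and cannot be given without it.

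Hox genes encode homeodomain transcription factors that give cells their position along the body axis and the limb. In a Hox cluster the genes lie in the order in which they are used from head to tail, and adult mesenchymal cells keep the pattern that marks the body region they came from. Active Hox genes lie in broad acetylated domains, whereas silent ones are held by Polycomb proteins. Here Hoxa2 and Hoxa3 are called anterior, Hoxa4 to Hoxa7 central and Hoxa9 to Hoxa13 posterior. All promoter entries of these genes lie on the minus strand, so that Hoxa2 has the lowest and Hoxa13 the highest coordinates.

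The sequences around 5 annotated starts are shown because the results turn on them: Hoxa2, where old TSA had fewer H3K27ac tags, Hoxa5, where H3K27ac was listed in 1 library only, Hoxa9 and Hoxa10, which carried the bulk of the acetylation, and Hoxa13, which had none. Each runs from 250 bases before to 50 after the start, 5′ to 3′, from RefSeq (GRCm38.p6). Capitals mark matches, on either strand, to the TATA box (TATAAA), the CCAAT box, the GC box (GGGCGG), the E-box (CACGTG), the caudal-type homeobox motif (TTTATG) or a PBX and HOX motif (TGATTGAT), and matches that adjoin run together.
Hoxa2, chr6:52164782-52165081, minus strand: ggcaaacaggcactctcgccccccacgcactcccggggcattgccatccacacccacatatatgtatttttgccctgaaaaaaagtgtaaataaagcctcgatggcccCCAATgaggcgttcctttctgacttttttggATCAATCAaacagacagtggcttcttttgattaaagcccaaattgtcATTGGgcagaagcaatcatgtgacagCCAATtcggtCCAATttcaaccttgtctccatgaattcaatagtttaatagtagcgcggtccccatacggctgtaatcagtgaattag
Hoxa5, chr6:52204538-52204837, minus strand: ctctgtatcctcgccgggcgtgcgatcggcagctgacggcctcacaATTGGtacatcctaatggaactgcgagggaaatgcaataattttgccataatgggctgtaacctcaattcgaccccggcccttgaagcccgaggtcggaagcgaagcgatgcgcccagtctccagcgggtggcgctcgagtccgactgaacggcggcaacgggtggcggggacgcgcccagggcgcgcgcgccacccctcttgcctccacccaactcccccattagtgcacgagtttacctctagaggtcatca
Hoxa9, chr6:52227321-52227620, minus strand: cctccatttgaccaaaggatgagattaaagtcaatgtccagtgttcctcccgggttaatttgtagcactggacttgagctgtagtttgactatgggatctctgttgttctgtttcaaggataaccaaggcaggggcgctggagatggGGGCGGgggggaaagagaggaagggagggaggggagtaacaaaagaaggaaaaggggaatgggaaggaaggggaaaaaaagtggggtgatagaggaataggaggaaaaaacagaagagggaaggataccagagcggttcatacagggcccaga
Hoxa10, the start inside the strongest peak, chr6:52234890-52235189, minus strand: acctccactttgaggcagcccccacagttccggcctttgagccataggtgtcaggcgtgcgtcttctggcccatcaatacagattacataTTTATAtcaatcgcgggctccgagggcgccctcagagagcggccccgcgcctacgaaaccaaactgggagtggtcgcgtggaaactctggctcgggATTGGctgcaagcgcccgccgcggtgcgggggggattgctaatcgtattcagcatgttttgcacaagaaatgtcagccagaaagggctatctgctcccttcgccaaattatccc
Hoxa13, chr6:52260831-52261130, minus strand: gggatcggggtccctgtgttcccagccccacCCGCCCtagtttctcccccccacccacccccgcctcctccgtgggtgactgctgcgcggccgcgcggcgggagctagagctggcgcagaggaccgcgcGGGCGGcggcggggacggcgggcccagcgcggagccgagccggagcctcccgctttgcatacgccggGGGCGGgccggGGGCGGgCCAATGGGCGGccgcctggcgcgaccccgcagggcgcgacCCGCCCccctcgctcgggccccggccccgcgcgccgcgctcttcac

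The gene of the microRNA miR-196b also lies in the block, between Hoxa9 and Hoxa10 on the minus strand (85 bases, chromosome 6, 52230081 to 52230165). MicroRNAs of this family are known to repress Hox transcripts. Its mature strands are shown with the seed, bases 2 to 8, in capitals.
mmu-miR-196b-5p: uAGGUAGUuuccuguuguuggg
mmu-miR-196b-3p: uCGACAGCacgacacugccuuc

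Listed peaks of the cluster lay between the low-coordinate side of Hoxa2 and the far side of Hoxa11, with none around Hoxa13 (see the map of peaks along the cluster). Inside that span lay long gaps between neighbouring H3K27ac peaks, one of 15529 bp across Hoxa5 in old TSA and one of 14699 bp between Hoxa3 peaks and Hoxa4 in young TSA. The block held 30 H3K27ac peaks in old TSA, covering 32317 bp or 23.3% of it, and 30 in young TSA, covering 32475 bp or 23.5%. In the H3K9/14ac library of old TSA 21 peaks covered 24115 bp, which is 17.4%. The tags, meaning sequenced reads that fall in peaks, numbered 7982 in old TSA and 7548 in young TSA for H3K27ac, and 3331 for H3K9/14ac in old TSA. Their 95% Poisson intervals were 7808 to 8159, 7379 to 7720 and 3219 to 3446, and like all intervals here they cover counting error only. Widths of H3K27ac peaks ran from 154 to 4113 bp in old TSA and from 169 to 3676 bp in young TSA, with medians of 721.5 and 795.5 bp. H3K9/14ac peaks were 232 to 2550 bp wide, with a median of 1157 bp, against 875 bp over that list as read.

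**Figure D1:**
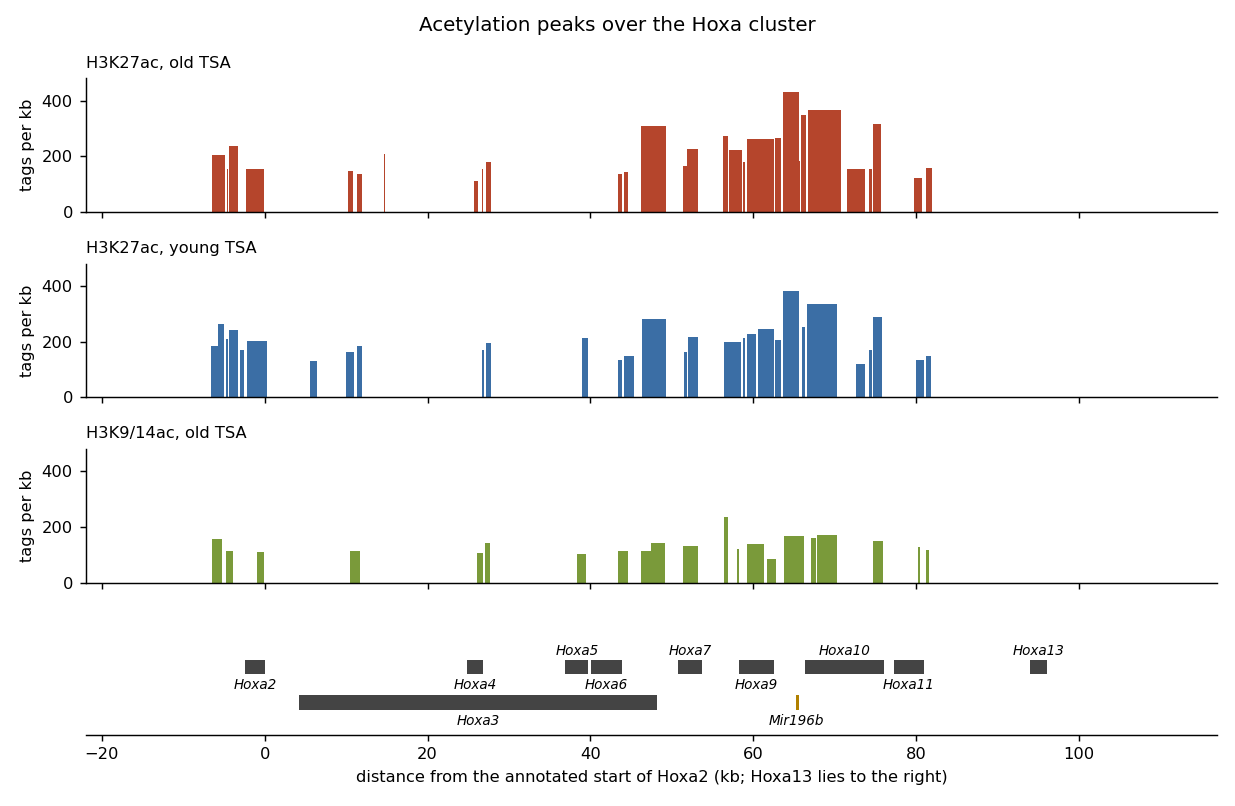
Peaks along the Hoxa cluster in the 3 libraries that reach it, drawn at their true widths, with height giving tags per kb of the peak; the x axis is the distance in kb from the annotated start of Hoxa2, and the bottom row shows the listed genes and Mir196b. The highest bars, 433 tags per kb in old TSA and 381 in young TSA, stand over Mir196b, and no library has a peak at Hoxa13.

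Few stretches of this length were covered as far. The chromosomes up to the point that all 3 lists reach were split into 8101 consecutive windows of 138463 bp. A window with any peak was covered over a median of 2664 bp in H3K27ac of old TSA, 2592 bp in H3K27ac of young TSA and 2135 bp in H3K9/14ac of old TSA. At least as many bp as in the Hoxa block were covered in 12 windows of old TSA (0.148%), in 9 windows of young TSA (0.111%) and, for H3K9/14ac, in none, where the fullest window had 21886 bp. By tags, 11 and 7 windows matched or passed the block for H3K27ac of old and young TSA, and none for H3K9/14ac. Windows were laid without regard to genes, so the cluster itself may be split between neighbouring windows. The density inside peaks was less far from the rest: 247 tags per covered kb for H3K27ac of old TSA, against 219 over that list, and 232 in young TSA, against 231. For H3K9/14ac it was 138 tags per covered kb, against 166 over the list.

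**Figure D2:**
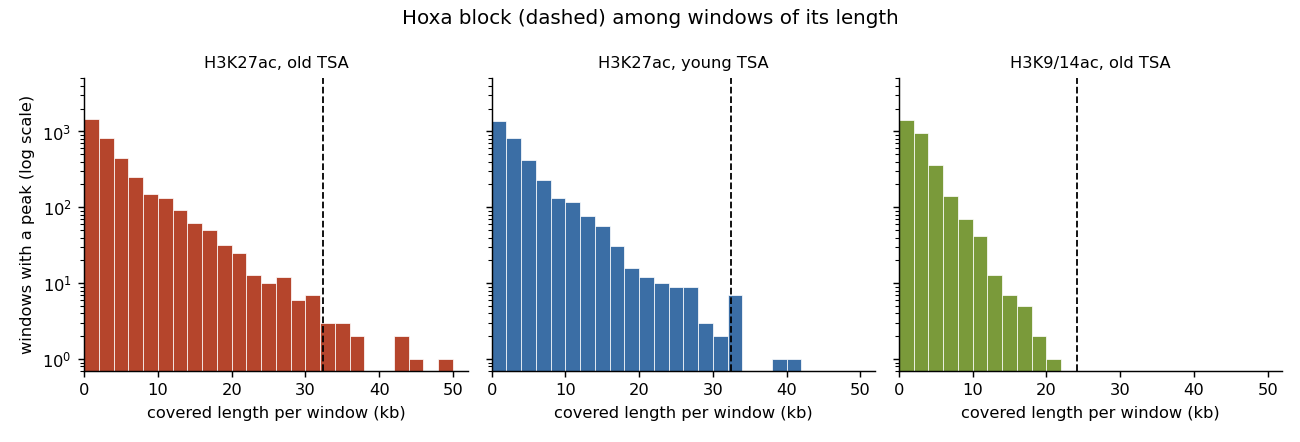
Number of windows of 138463 bp (log scale) by covered length in kb, for windows with a peak, in 3 panels, 1 for each library; dashed lines mark the Hoxa block, at 32317 bp in old TSA and 32475 bp in young TSA for H3K27ac and at 24115 bp for H3K9/14ac. In the H3K9/14ac panel the line lies beyond the fullest window.

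Acetylation was concentrated at the posterior genes. Peaks nearest to Hoxa9, Hoxa10 or Hoxa11 held 64.5% of the H3K27ac tags of the block in old TSA, 55.7% in young TSA, and 52.8% of the H3K9/14ac tags. Anterior genes held 21.2%, 28.1% and 21.1% in the same 3 libraries, and central genes 6.88%, 7.47% and 17.6%. The anterior shares include peaks lying among the central genes, because the Hoxa3 annotation reaches across Hoxa4, Hoxa5 and Hoxa6. The H3K27ac peak at the annotated start of Hoxa3, between Hoxa6 and Hoxa7, held 11.5% in old TSA and 11.1% in young TSA. The unlisted gene at the low-coordinate end held 7.43%, 8.68% and 8.53%. The density inside posterior peaks was 279 H3K27ac tags per covered kb in old TSA and 255 in young TSA, above anterior peaks (213 in old TSA, 207 in young TSA) and central peaks (175 in old TSA, 195 in young TSA). The bars of tags by gene show the same order in all 3 libraries at the top, with Hoxa10 first, whereas Hoxa3 lies below Hoxa9 for H3K27ac of old TSA and above it for the other libraries.

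Hoxa10, which patterns the lumbar skeleton and the uterus (chromosome 6, 52231197 to 52240854), held 3265 H3K27ac tags in 7 peaks of old TSA and 2588 tags in 6 peaks of young TSA, and 1139 H3K9/14ac tags in 4 peaks of old TSA. Its strongest peak, from 52231532 to 52235645 with 1502 tags, ranked 68 of 17809 peaks by tags in the old TSA list, counted up to the point that all 3 lists reach, as are all list-wide ranks, widths and densities given here. The matching peak of young TSA, from 52231420 to 52235096 with 1231 tags, ranked 149 of 13914. That peak spans the more downstream of the gene's annotated starts, whose window (shown above) lies wholly inside it in old TSA and over 207 of its bases in young TSA. The start further upstream was not covered by H3K27ac, with gaps of 326 bp to the nearest peak in old TSA and 227 bp in young TSA.

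The peak over Mir196b, also counted with Hoxa10, was the densest of the block for H3K27ac. It held 853 tags over 1972 bp in old TSA and 746 tags over 1957 bp in young TSA, and covered the whole miRNA gene in both. The H3K9/14ac peak there, 432 tags over 2550 bp, was the one with the most tags in the block, with 4.81% of that list above it. The lncRNA Gm52902, which runs across this interval from 52227504 to 52232651, was covered over 87.3% in old TSA and 86.6% in young TSA by H3K27ac, and over 64.3% by H3K9/14ac.

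Hoxa9, a regulator of blood stem cells and of the posterior axis (52223097 to 52227370), held 1646 H3K27ac tags in old TSA, 1385 in young TSA and 545 H3K9/14ac tags in old TSA. Its peaks, 6 in old TSA and 5 in young TSA with some of them outside the gene, left only short gaps within it. Hoxa11, needed for the forearm and the uterus (52242105 to 52245810), held far fewer, with 234 tags in old TSA, 235 in young TSA and 74 H3K9/14ac tags. Hoxa13, the gene of digits and of the genital tract (52258853 to 52260880), had no peak in any of the 3 libraries, and the nearest peak edge lay 14142, 14165 and 14423 bp from its start for H3K27ac of old TSA, H3K27ac of young TSA and H3K9/14ac of old TSA. The lncRNA Hottip beyond it (52262775 to 52267603) had none either. A list without a peak does not show that the mark is absent, only that none was listed.

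**Figure D3:**
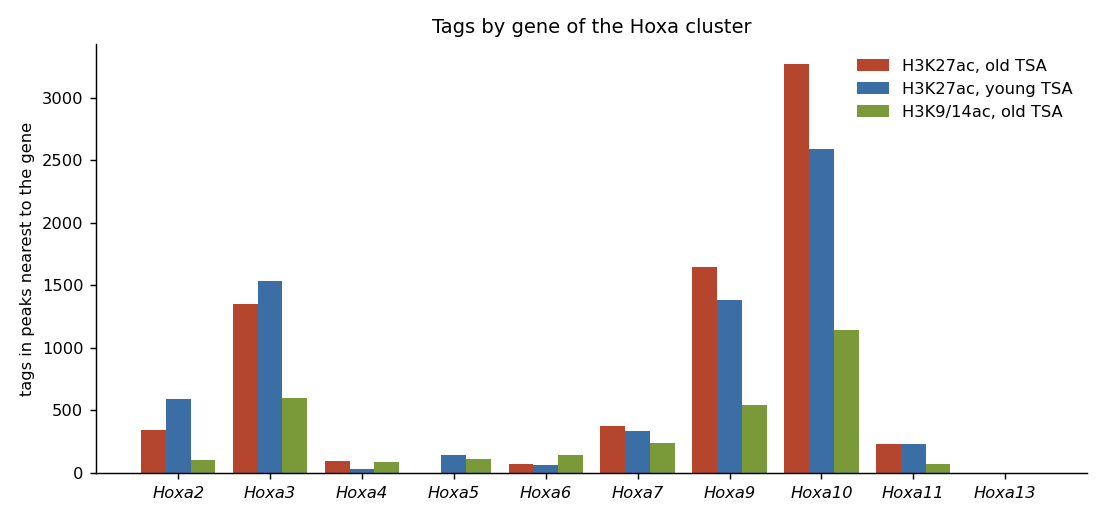
Tags in the peaks nearest to each listed gene (y axis) for H3K27ac in old TSA, H3K27ac in young TSA and H3K9/14ac in old TSA, 1 library each and so without error bars. Hoxa10 has 3265, 2588 and 1139 tags, Hoxa13 has none, and Hoxa5 lacks a bar for H3K27ac in old TSA.

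Among the anterior genes, Hoxa2, the identity gene of the second pharyngeal arch (52162417 to 52164831), held 342 H3K27ac tags in old TSA and 590 in young TSA, and 102 H3K9/14ac tags in old TSA. Hoxa3, which is needed for thymus and parathyroid (52169059 to 52213067), held 1353 H3K27ac tags in old TSA, 1531 in young TSA and 601 H3K9/14ac tags in old TSA. In both H3K27ac libraries most of the Hoxa3 tags came from 1 peak at its annotated start, with 920 tags in old TSA (52211100 to 52214081) and 838 in young TSA (52211133 to 52214093). The Hoxa3 annotation is long and encloses Hoxa4, Hoxa5 and Hoxa6, so that some of its peaks lie closer to the start of one of those genes than to its own.

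The central genes were given few tags, 549 for H3K27ac of old TSA. With peaks given to the gene whose nearer end is closest, they held 792. Hoxa7 (52215623 to 52218573) held 378 H3K27ac tags in old TSA, 334 in young TSA and 243 H3K9/14ac tags. Hoxa6 (52204858 to 52208672) held 73 H3K27ac tags in old TSA, 61 in young TSA and 144 H3K9/14ac tags. Its H3K9/14ac peak also spans an H3K27ac peak of 80 tags in old TSA that was given to Hoxa3. With peaks given by the nearer gene end, Hoxa6 held 153 H3K27ac and 144 H3K9/14ac tags in old TSA. Hoxa4 (52189682 to 52191703) held 98 H3K27ac tags in old TSA, 29 in young TSA and 88 H3K9/14ac tags. Hoxa5, which patterns the neck and upper trunk and is needed for the lung (52201754 to 52204587), had 1 H3K27ac peak of 140 tags in young TSA and none in old TSA, while the H3K9/14ac library of old TSA listed 111 tags there.

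The comparison of old TSA with young TSA asked whether the cluster's H3K27ac differed with age under the same treatment. All mice were mdx, so age and stage of disease cannot be told apart. Over the block as a whole there was hardly a difference: relative tags were 0.04 on the log2 scale (95% counting interval -0.0010 to 0.09). Relative tags are the log2 of tags in old TSA over young TSA, less the median of that log2 ratio (0.04) among regions that both lists hold. Scaled by all tags in peaks instead, the sign turned, to -0.06. Within the cluster the groups of genes went different ways. Posterior genes had 5145 tags in old TSA and 4208 in young TSA, or relative tags of 0.25 (0.19 to 0.31). Anterior genes had 1695 tags in old TSA and 2121 in young TSA, or -0.36 (-0.45 to -0.27). Of these, 920 tags in old TSA and 838 in young TSA lay at the annotated start of Hoxa3, between Hoxa6 and Hoxa7, with relative tags of 0.10. The anterior value is therefore not one of an end of the cluster alone. Central genes had 549 tags in old TSA and 564 in young TSA, or -0.08 (-0.25 to 0.10). The intervals of the posterior and the anterior genes do not overlap, but they hold no spread between animals, and the difference between them was not tested against one.

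The cells' label was checked with marker genes in the H3K27ac lists. All 9 FAP markers carried tags in both lists, with sums of 22839 in old TSA and 16622 in young TSA, and 9 of 9 had relative tags above 0 (median 0.29), among them Pdgfra, the receptor that marks these cells, at 0.29 and Prrx1 at 0.70. Scaling by all tags in peaks lowers every value by 0.10, which turns Cd34, at 0.05. Of 7 markers of muscle stem cells and fibres, Pax7, Myod1, Des, Ckm and Acta1 had no H3K27ac tags in either list. Casq1 had 346 in old TSA and 309 in young TSA (0.13), and Mylpf 221 in old TSA and 128 in young TSA (0.75). Sums over the list were 567 in old TSA and 437 in young TSA. At Myod1 the H3K9/14ac list of old TSA held 496 tags. All 6 endothelial markers carried tags, summing to 10485 in old TSA and 14794 in young TSA, and all 6 were below 0 (median -0.49), from Kdr at -1.12 to Eng at -0.32. Kdr, with 3016 tags in young TSA, stood above Pdgfra, with 2274, and in old TSA below it, with 1419 against 2844. The lists thus carried endothelial signal beside that of FAP markers, and the purity of the sorted cells was not tested. Of 5 macrophage and leukocyte markers, which summed to 991 tags in old TSA and 1012 in young TSA, single genes went different ways. Ptprc, the pan-leukocyte gene, had 562 tags in old TSA and 941 in young TSA (-0.78), and Fcgr1 had 92 in old TSA and 71 in young TSA (0.34). Spi1 with 217 tags and Mrc1 with 120 were listed in old TSA and not in young TSA, and Tyrobp was at 0 in both lists. Of 3 pericyte markers Kcnj8 was at 0, and the sums were 303 in old TSA and 126 in young TSA. The 3 neural genes had no H3K27ac tags in either list. The part of these shifts in the values of the Hoxa genes was not tested. In sorted cells, fewer cells of a type and less of a mark per cell cannot be told apart.

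Of the 10 genes, 8 had H3K27ac tags in both lists. Relative tags were above 0 in 5, or in 47.3% of all genes, and below 0 in 3, with a median of 0.18, while all 5480 genes with tags in both lists had a median of -0.03 and a middle range of -0.26 to 0.28. Past 1.5-fold, 1 member was higher in old TSA, Hoxa4, where 12.7% of all genes were, and 1 was lower, Hoxa2, where 5.64% were. By covered length 6 members were longer in old TSA, as were 58.6% of all genes, and 3 were shorter, as were 41.4%. Hoxa2 stood at -0.82 (-1.02 to -0.63) and Hoxa3 at -0.21 (-0.32 to -0.11). Hoxa10 stood at 0.30 (0.22 to 0.37) and Hoxa9 at 0.21 (0.11 to 0.32). Hoxa11 at -0.04, Hoxa7 at 0.14 and Hoxa6 at 0.22 had intervals that include 0. Hoxa4 stood at 1.72 (1.11 to 2.37), a value that rests on few tags and on 1 peak of 62 tags found in old TSA only. With peaks given to the gene whose nearer end is closest, Hoxa4 stood at 0.74 and Hoxa6 turned to -0.71.

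Peaks of both H3K27ac lists that overlapped or touched were joined into regions. The block held 32, of which 26 had a peak in both lists, 3 in old TSA only and 3 in young TSA only. Over all 20700 regions these shares were 64.1%, 27.7% and 8.23%. Among the 26 shared regions 2 were over 1.5-fold higher in old TSA (11.6% of all shared regions were) and 5 over 1.5-fold lower (7.49%). Of the 13 shared posterior regions 11 lay above 0 and 2 below, with a median of 0.19, and 9 lay above 0 when scaled by all tags in peaks. Of the 6 shared anterior regions 4 lay below 0, with a median of -0.61, and 6 lay below 0 with that scaling. The 4 shared central regions lay above 0, 3 of them with that scaling. All shared regions of the unlisted gene lay below 0. Among all shared regions of the lists as many lie above 0 as below, since their median sets 0, with a middle range of -0.26 to 0.30. Neighbouring regions of the same 2 libraries are not separate observations.

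The posterior region that differed by most lay inside Hoxa10, from 52236385 to 52238512, between its annotated starts. It held 331 tags over 2127 bp in old TSA and 135 tags over 1115 bp in young TSA, with relative tags of 1.26 (0.96 to 1.56). The other region past 1.5-fold higher lay at Hoxa7, with 84 tags in old TSA and 54 in young TSA (0.60, interval 0.09 to 1.12). The region that was lowest in old TSA lay between Hoxa6 and the start of Hoxa3, from 52208926 to 52210201, with 80 tags over 556 bp in old TSA and 183 tags over 1244 bp in young TSA (-1.23, interval -1.63 to -0.84). At Hoxa2 the region over the gene and its start held 342 tags in old TSA and 511 in young TSA (-0.62, interval -0.82 to -0.42). It reached over all 300 bases of the start window in young TSA and over 17 of them in old TSA. A pair of regions inside Hoxa3 had 101 and 89 tags in old TSA, against 150 and 134 in young TSA.

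**Figure D4:**
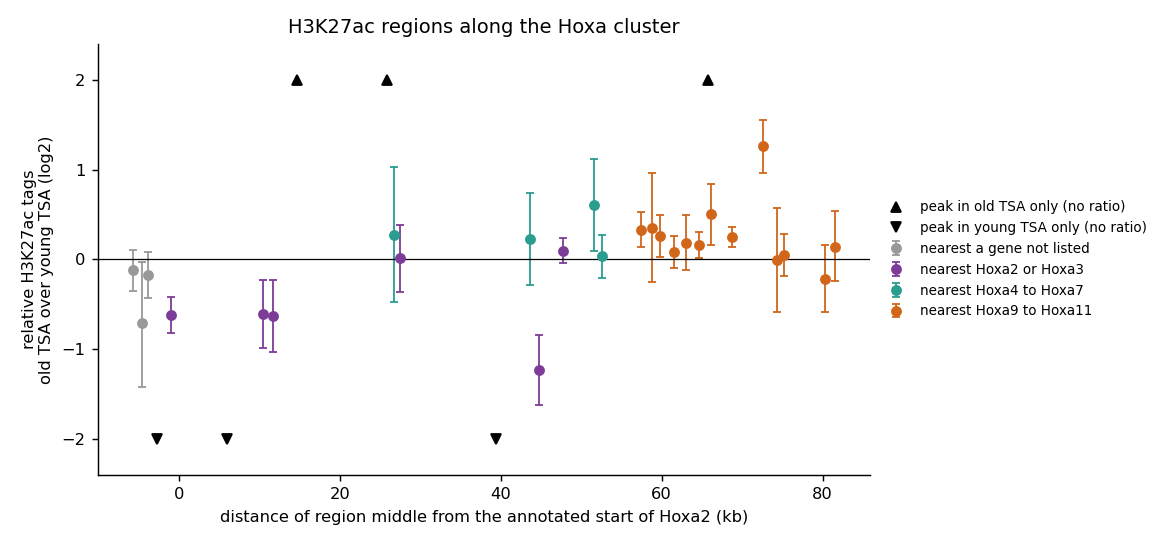
Relative H3K27ac tags, old TSA over young TSA (log2), of the 26 regions with a peak in both lists, against the distance of the region's middle from the annotated start of Hoxa2 in kb; bars are 95% counting intervals, colours give the nearest genes, and triangles mark regions listed in 1 library only. Regions nearest to Hoxa9, Hoxa10 and Hoxa11 lie between -0.21 and 1.26, and those nearest to Hoxa2 and Hoxa3 between -1.23 and 0.10.

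The 6 regions with a peak in 1 library carried 79 and 103 tags near Hoxa2 and in Hoxa3 and 140 at Hoxa5 in young TSA, and 36 in Hoxa3, 62 in Hoxa4 and 28 next to Hoxa10 in old TSA. The file headers name the lists as filtered, and peak numbers are skipped in them. Across the block 13 of the 43 numbers were skipped in old TSA (30.2%), 8 of 38 in young TSA (21.1%) and 10 of 31 in the H3K9/14ac list (32.3%). Skipping was more common over the lists as a whole, at 41.8%, 44.8% and 49.9% in the same order. For 5 of the 6 regions, the exception being the one next to Hoxa10, at least 1 number is skipped between the neighbouring peaks of the list that lacks the region. At Hoxa5 that is 1 number within 15529 bp of the old TSA list. Whether a skipped peak lay at these regions cannot be told apart from no peak. Counted over shared regions alone, relative tags were 0.25 for posterior genes (0.19 to 0.31), -0.26 for anterior genes (-0.36 to -0.17) and 0.16 for central genes (-0.03 to 0.36), so that the central value changed sign.

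The marks were set side by side in old TSA. Of the 21 H3K9/14ac peaks in the block 20 overlapped an H3K27ac peak, or 95.2% (exact binomial interval 76.2 to 99.9), where 83.4% of all 8447 peaks of that list did. The exception was the peak at Hoxa5, from 52203166 to 52204231. Of the 30 H3K27ac peaks 26 overlapped an H3K9/14ac peak, or 86.7% (69.3 to 96.2), against 41.4% of all 17809 peaks up to the end of the H3K9/14ac list. The marks shared 21023 bp, which is 87.2% of the H3K9/14ac length and 65.1% of the H3K27ac length.

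The ratio of H3K9/14ac to H3K27ac tags, taken relative to its median over regions with both marks, differed along the cluster. It was -0.88 (log2, interval -0.96 to -0.80) at posterior genes, -0.60 (-0.73 to -0.47) at anterior genes and 0.76 (0.59 to 0.94) at central genes, where the missing H3K27ac peak at Hoxa5 raises it. Hoxa6 had the highest value, 1.65, and Hoxa2 the lowest, -1.07. Hoxa9 stood at -0.92, Hoxa10 at -0.85 and Hoxa7 at 0.03. Over all genes 32.5% lay over 1.5-fold below the median and 23.7% over 1.5-fold above it. Among the 8 members with both marks 4 lay over 1.5-fold below, with Hoxa3 at -0.50 short of it, and 1, Hoxa6, lay above along with Hoxa4 at 0.52 short of it. The central values depend on which gene a peak is given to. With peaks given to the closest gene end, Hoxa6 stood at 0.58, short of 1.5-fold, and Hoxa4 at 0.08. Central genes then held 671 H3K9/14ac and 792 H3K27ac tags in old TSA, in place of 586 and 549. All these ratios also depend on the scaling. The median log2 ratio taken off was -0.67, whereas the log2 ratio of all tags in peaks was -1.33. Scaled by all tags in peaks, every ratio would be higher and the order of the groups the same.

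Whether the annotated starts themselves were covered was read from the windows of 250 bases before to 50 after each start. RefSeq windows were matched for 9 of the 10 members, 10 windows in all, with none for Hoxa4. Each library had a peak over 6 of them, while over all 9685 windows of protein-coding genes in the stretch the shares were 44.7% for H3K27ac of old TSA, 43.7% for H3K27ac of young TSA and 49.1% for H3K9/14ac. The start of Hoxa5 lay 72 bp outside its young TSA peak. The start of Hoxa7 lay 518 bp from the nearest H3K27ac peak in old TSA and 486 bp in young TSA.

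CpG content ranged widely among these windows. The bare Hoxa13 window had 45 CpG and 81% G or C, the most of the 10, and 2.1% of all 21262 windows had more CpG. The Hoxa9 window had 4 CpG, the fewest, where the median over all windows was 13. CCAAT stood in 5 of the 10 member windows (38.2% of all windows), GGGCGG in 4 (46.2%), TATAAA in 1, that of the downstream Hoxa10 start (12.6%), and TTTATG in 1, that of Hoxa7 (9.71%). TGATTGAT, a pairing of PBX and HOX core letters, stood in the Hoxa2 window and in 0.616% of all windows, and CACGTG in none of the 10 (7.84%). No motif contains another. These are matches of letters and not shown to be bound.

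Genes of Hox cofactors were read the same way. Meis2, a homeodomain partner of Hox proteins, had 1805 tags in old TSA and 1337 in young TSA, with relative tags of 0.40. Pbx3 had 314 in old TSA and 180 in young TSA (0.77), and Meis3 106 in old TSA and 45 in young TSA (1.20). Pbx4 had none. Of 12 limb and mesenchyme transcription factor genes in the stretch 8 had tags in both lists, all 8 lay above 0 and 5 over 1.5-fold, where 12.7% of all genes were, with a median of 0.74 (scaled by all tags in peaks, Shox2 falls below 0). Tbx5, the forelimb factor, had 161 tags in old TSA and 69 in young TSA (1.19), and Shox2, a factor of the upper limb segment, 905 in old TSA and 866 in young TSA (0.03). Of 7 acetylation, Polycomb and trithorax regulators none passed 1.5-fold, and their median was 0.07, from -0.12 at Cbx3 to 0.12 at Hdac4. On either side of the cluster, Skap2 had 642 tags in old TSA and 438 in young TSA (0.52), Jazf1 944 in old TSA and 422 in young TSA (1.13) and Hibadh 1057 in old TSA and 679 in young TSA (0.60), while Evx1, the homeobox gene beyond Hoxa13, had 118 in old TSA and was not listed in young TSA. Tax1bp1 and Hnrnpa2b1 lay below 0, at -0.22 and -0.17.

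The Hoxd cluster, on chromosome 2 from 74648225 to 74785142 with the same flanks, was the nearest match and lies within all 8 lists. It was far less covered than Hoxa: H3K27ac peaks numbered 5 in old TSA and 5 in young TSA, over 5384 bp (3.93%) and 5863 bp (4.28%), and H3K9/14ac covered 5597 bp (4.09%) in old TSA. Old TSA held 1126 H3K27ac tags and young TSA 1110, with relative tags of -0.02 (-0.14 to 0.11), a value whose interval overlaps that of the Hoxa block. Tags lay at Hoxd3, Hoxd8 and Hoxd9, with 443, 401 and 282 in old TSA, against 531, 374 and 205 in young TSA. Relative tags were -0.30 at Hoxd3, 0.06 at Hoxd8 and 0.42 at Hoxd9. Hoxd4, Hoxd10, Hoxd11, Hoxd12 and Hoxd13 had no peak assigned in any of these 3 libraries, and Hoxd1 only 56 H3K9/14ac tags. The ratio of H3K9/14ac to H3K27ac tags over the Hoxd block, relative to its median, was 0.42 (0.29 to 0.54), against -0.59 (-0.65 to -0.53) over the Hoxa block. The sign of the Hoxa value depends on the scaling. Before scaling the Hoxa block stood at -1.26, below the median ratio of -0.67 but above the -1.33 of all tags in peaks.

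Since every list reaches the Hoxd block, TSA and vehicle can be set side by side there, as they cannot for Hoxa. H3K27ac held 1110 tags in young TSA and 1116 in young vehicle, or relative tags of 0.12 (0.0017 to 0.24). In old mice it held 1126 tags with TSA and 558 with vehicle, or 0.53 (0.38 to 0.68). H3K9/14ac held 1389 tags in young TSA and 685 in young vehicle, or 0.63 (0.49 to 0.76). In old mice it held 944 tags with TSA and 851 with vehicle, or 0.61 (0.47 to 0.74), after a median ratio of -0.46. Both H3K9/14ac values rest on the library labels doubted above. The old and the young comparison under vehicle, with 558 H3K27ac tags in old vehicle against 1116 in young vehicle and relative tags of -0.41, shares its libraries with the H3K27ac comparisons given here.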

How the data were processed

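ChIP-seq peak lists of sorted FAPs were used. The submitters' processing notes name Bowtie 0.12.7, MACS2, HOMER and genome build GRCm38 among other tools, without roles. Per the file headers, HOMER counted the tags of each library in its own peaks at their given sizes on both strands. The authors deposited these tags as raw counts per peak, not normalized and not pooled. The total tags per library are not given in the sources used here, so precision was read from tags in peaks (452476 to 4159284 per list as read).

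Lists break off inside 1 line, which was dropped. Peak length is end minus start. Peaks were joined where they overlapped by 1 bp or touched. Age values use chromosomes 1 to 8 and chromosome 9 up to 23224518, mark values chromosomes 1 to 6 and chromosome 7 up to 127895614. No test was run, since each group has 1 library, and calls mean a difference past 1.5-fold. Named genes were all members, the Hoxd genes, and lists from which up to 4 genes with the largest or smallest differences were named, together with markers. Evx1, Tax1bp1, Hnrnpa2b1, the named marker values and the counts over shared regions alone were chosen after their values were seen. One gene of the cofactor list is not reported here. Members and lists were chosen with earlier results of these data known. The code was tested on simulated data. Python 3.11.15, numpy 2.4.6, pandas 2.3.3, scipy 1.17.1 and matplotlib 3.10.9 were used.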

Additional observations from a re-analysis of the deposited data

Results flagged for a closer look

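Covered H3K27ac length of the Hoxd block was greater with TSA than with vehicle in old mice and hardly differed in young mice. It differed by -128 bp between young TSA (5863 bp) and young vehicle (5991 bp), and by 2141 bp between old TSA (5384 bp) and old vehicle (3243 bp). By their headers the whole lists hold 32874 peaks in young TSA and 43021 in young vehicle, and 41860 in old TSA and 32062 in old vehicle. The part of list size in the covered lengths was not tested. Each value comes from 1 library a group, and the difference between the ages was not tested.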

How the results depend on the processing

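No paired analysis was possible because each group has 1 library and no result comes from a test. Of 24 alternative values for the Hoxa block, 17 stayed within the counting interval or, where there is none, within 1.5 times of the reported value. The 17 include every value with a flank of 50000 bp, an overlap of at least 50% of the shorter peak, or only the part inside the block. Those settings left the reported values exactly as they were, so they say little about how stable the values are. Relative H3K27ac tags of old TSA over young TSA were -0.011 (log2) when the lists were cut to the same number of peaks by tags, -0.010 when cut by width and -0.055 when scaled by all tags in peaks, against the reported 0.04. They were 0.081 (0.033 to 0.13) with no flank and 0.081 (0.035 to 0.13) with no scaling, where the intervals lie above 0 and the reported one does not. The difference in covered length, reported as -158 bp, was 385 bp with no flank, so that its sign turned, and -1563 bp when the old TSA list was cut by tags or by width. The share of H3K9/14ac peaks with an H3K27ac peak was 71.4% (47.8 to 88.7) when cut by tags, where the H3K27ac list is shorter by construction. With a fold of 2 in place of 1.5, shared regions past it numbered 500 higher and 289 lower in old TSA, against 1538 and 994, and 1 higher and 1 lower lay in the block. Scaled by all tags in peaks, relative tags were 0.15 for posterior, -0.46 for anterior and -0.17 for central genes, and with peaks given to the closest gene end they were 0.25, -0.36 and -0.17. Of 16 alternative values for single genes 13 stayed within their interval, Hoxa4, Hoxa6 and Hoxa10 each left it once, and the sign of Hoxa6 turned. Regions were not recounted on the reads, so that a peak's tags depend on the width at which it was listed, and differences in tags partly carry differences in width.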
